A study of Saccharomyces cerevisiae with 4 samples.

Results

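The cytosolic ribosomal proteins of the large subunit are coded in budding yeast by 81 of the 7126 features of this PAR-CLIP series. They were taken by name from the authors' deposited table, as every gene called RPL with a number plus the stalk genes RPP0, RPP1A, RPP1B, RPP2A and RPP2B. All 81 matched the RefSeq annotation of assembly R64. The study mapped RNA bound by Mip6, an RNA-binding protein linked to the mRNA export receptor Mex67. In PAR-CLIP, cells take up 4-thiouracil, and ultraviolet light then crosslinks the labelled RNA to bound protein.

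All 4 samples came from the Saccharomyces cerevisiae strain Mip6-HTB, grown in a synthetic glucose medium with added uracil, adenine and biotin. The unstressed cells stayed at 30 °C and gave 1 sample of reads per strand, as did the heat-stressed cells, which spent 20 min at 39 °C. Labelling with 4-thiouracil lasted 45 min in the unstressed cells. In the stressed cells it lasted 25 min before the shift and 20 min after it. Both then received 15 min of light at 365 nm, and tagged Mip6 was purified on nickel and streptavidin beads. The strand samples of a temperature are parts of 1 library. Each temperature thus has a single library, so the comparison has no replicate check and no p-value. No sample analysed here is an untagged strain or input RNA. A level therefore depends on the amount of mRNA, on its labelling with 4-thiouracil and on its crosslinking to Mip6, and these cannot be told apart.

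The large subunit forms the peptide bond at its peptidyl transferase centre and leads the new chain out through an exit tunnel. A stalk of acidic proteins recruits the translation GTPases, and a particle of 5S rRNA with its own proteins sits at the top of the subunit. Most of these proteins are coded by a pair of paralogs, named A and B, and most such pairs arose in the whole-genome duplication. Their genes are transcribed together under the factors Rap1, Fhl1 and Ifh1, and in yeast their mRNAs are known to decline for a time after heat shock.

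The library total was 11657228 reads in features at 30 °C and 6950540 at 39 °C. Only reads on the gene's own strand were used for the values below, expressed as CPM (counts per 1e+06 reads in features) and, to compare genes with each other, as RPKM (CPM per kilobase of feature). The 81 genes had 117 to 12306 own-strand reads at 30 °C, with a median of 3080, and 43 to 6489 at 39 °C, with a median of 1072. Other-strand reads made up 2.1% to 10.8% of a gene's reads at 30 °C and 1.8% to 17.4% at 39 °C, the highest share at both temperatures being that of RPL24A. Each 95% interval is an exact binomial interval that treats reads as independent. It covers counting error only, neither PCR copies nor the difference between cultures. The temperature ratio from the count files was compared with the ratio in the authors' deposited table. The differences were centred by subtracting their median over the 81 genes. After centring, 8 genes departed by more than 0.1 (log2), namely RPL12B, RPL22A, RPL28, RPL33A, RPL36B, RPL39, RPL43A and RPP0. Their levels are given below with that limit, and the departures themselves are described further on.

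Large-subunit mRNAs were among the more heavily read RNAs at both temperatures. Their median level was 608.0 RPKM at 30 °C and 333.7 RPKM at 39 °C, beside 74.1 and 73.5 RPKM over all 6162 reading frames with at least 20 own-strand reads over both libraries. At each temperature 79 of the 81 genes lay above the median of all. The exceptions were RPL22A, with 27.4 RPKM at 30 °C and 27.1 RPKM at 39 °C, and RPL43A, with 36.9 and 22.2 RPKM, both among the genes with a departing ratio. Together the 81 genes held 296739 own-strand reads at 30 °C, 2.55% of all reads in features (Clopper-Pearson 95% interval 2.54 to 2.55). At 39 °C they held 114598 reads, or 1.65% (1.64 to 1.66).

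The highest levels per length belonged to the RPL41 genes, which code for the smallest protein of the ribosome from features of 78 bases. RPL41B (YDL133C-A, chromosome IV, 221724 to 221801) had 7061 RPKM at 30 °C and 6297 RPKM at 39 °C. RPL41A (YDL184C, chromosome IV, 130407 to 130484) had 6026 and 5089 RPKM. Levels per length were higher for shorter features, with a Spearman correlation of -0.42 between RPKM at 30 °C and length across the 81 genes, which share both libraries. The labels do not say how reads crossing the edge of so short a feature were counted.

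After RPL41 came RPL43B, which codes for a zinc-binding protein, with 3579 RPKM at 30 °C and 2506 RPKM at 39 °C. RPL38, a single-copy gene for a small protein, had 2429 and 1332.5 RPKM. RPP1A, an acidic stalk protein gene, had 1969 and 1146.5 RPKM, and RPL23B had 1815 and 1144 RPKM. The RPL42 pair, whose protein lies at the exit site for deacylated tRNA, followed with 1730 RPKM for RPL42A and 1689.5 RPKM for RPL42B at 30 °C, and with 953 and 1080 RPKM at 39 °C. Among genes whose ratio did not depart, the lowest levels were those of RPL4B, with 127 RPKM at 30 °C and 104 RPKM at 39 °C, and RPL4A, with 146 and 117 RPKM. The order of the genes was kept closely between the libraries, with a Spearman correlation of 0.955 for CPM across the 81 genes.

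**Figure D1:**
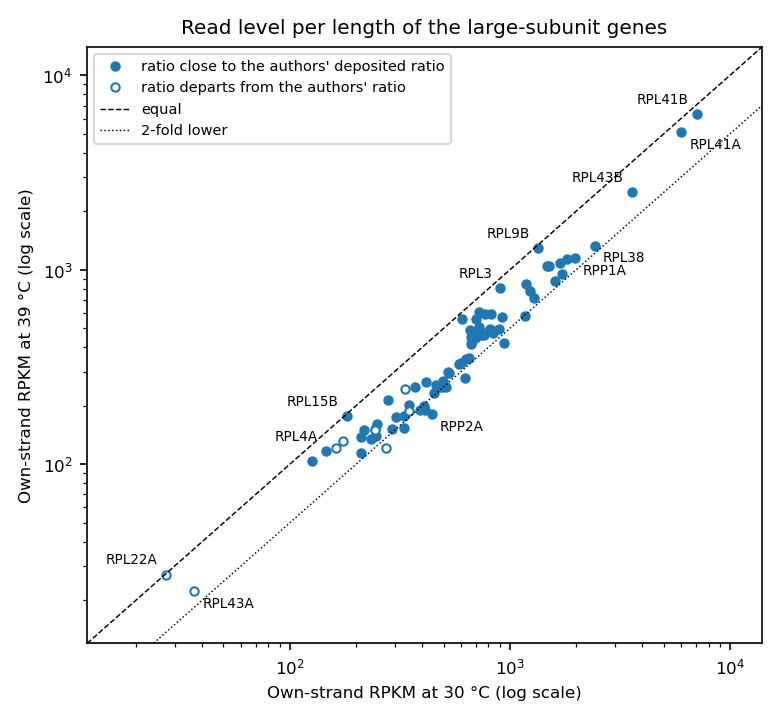
Own-strand RPKM of the 81 large-subunit genes at 30 °C (x axis, log scale) and 39 °C (y axis, log scale), 1 point per gene. The points lie between the line of equal level and a little below the line of a 2-fold lower level, from RPL22A and RPL43A at the bottom to the RPL41 pair at the top. Open points are the 8 genes whose ratio departs from the authors' deposited ratio.

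The comparison of 39 °C with 30 °C asked how Mip6-bound RNA differed after heat shock. The log2 ratio was computed after adding 0.5 to each count. The large-subunit genes had a lower share of reads at 39 °C almost without exception. Their log2 ratios had a median of -0.70, or 0.614 of the level at 30 °C, with quartiles of -0.87 and -0.51, against a median of -0.03 over all tested reading frames. Of the 81 genes, 80 lay below the median of all, the exception being RPL22A, and all 81 had a ratio below 0. Of the latter, RPL22A turned above 0, up to 0.03, under 6 other settings and RPL15B to 0.06 with both strands summed. The counting interval lay wholly below 0 for 79, the exceptions being RPL22A and RPL15B. The differences were mostly smaller than 2-fold. At least 2-fold lower were 10 genes, or 12.3%, where 2.69% of all tested reading frames passed that threshold. The count was 8 with TMM factors or with both strands summed, 7 after centring on the median of all tested reading frames and 6 with DESeq2 size factors. The genes that dropped below 2-fold with DESeq2 size factors were RPL16B, RPL27B, RPL6A and RPP2B. None was at least 2-fold higher, where 4.4% of all tested reading frames were. The other 71 lay within 2-fold.

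**Figure D2:**
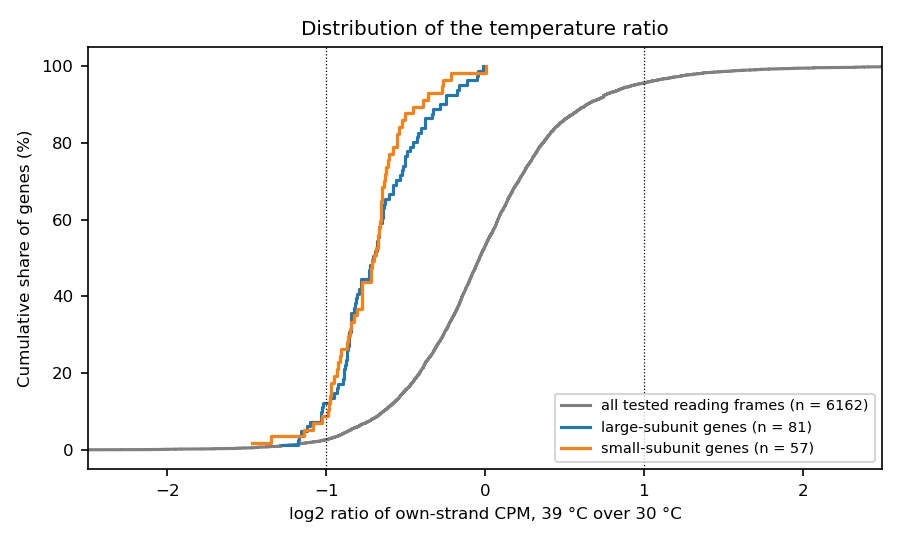
Cumulative share of genes (y axis, percent) by log2 ratio of own-strand CPM, 39 °C over 30 °C (x axis), for all 6162 tested reading frames, the 81 large-subunit genes and the 57 small-subunit genes. The curves of both subunits run close together and lie left of the curve of all reading frames, with medians of -0.70 and -0.70 against -0.03. Dotted lines mark 2-fold.

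By median log2 ratio the stalk genes were the lowest role, closely followed by the genes of the 5S particle at -0.825. RPP0 codes for the protein that anchors the stalk, the RPP1 and RPP2 genes code for the acidic proteins bound to it, and RPL12 lies at its base. All 7 genes lay below the median of all reading frames, with a median log2 ratio of -0.88 and a range from -1.28 to -0.78, and 3 were at least 2-fold lower. The stalk median is the value of RPL12B, which like RPP0 is a gene with a departing ratio. RPP2A (YOL039W, chromosome XV, 254297 to 254617) had the lowest ratio of the 81 genes. Its level was 141.6 CPM at 30 °C against 58.3 CPM at 39 °C (log2 ratio -1.28, interval -1.44 to -1.12). Its paralog RPP2B (YDR382W, chromosome IV, 1239492 to 1239824) had 390.8 against 192.8 CPM (log2 ratio -1.02, interval -1.11 to -0.93).

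RPP0 (YLR340W, chromosome XII, 805887 to 806825) had 256.3 CPM at 30 °C against 113.8 CPM at 39 °C (log2 ratio -1.17, interval -1.29 to -1.06). In the authors' deposited table its ratio was -0.99, just under 2-fold. The RPP1 genes were nearer to the median of the whole set. RPP1A (YDL081C) had 632.1 against 368.0 CPM (log2 ratio -0.78, interval -0.85 to -0.72). RPP1B (YDL130W) had 188.6 against 105.2 CPM (log2 ratio -0.84, interval -0.97 to -0.72). For RPL12A the levels were 151.1 and 87.2 CPM, with a log2 ratio of -0.79 (-0.93 to -0.66), and for RPL12B 173.3 and 93.8 CPM, with a log2 ratio of -0.88 (-1.02 to -0.76). The intervals of RPP2A and RPP1A did not overlap, so within these libraries the ratios of those stalk genes differed by more than counting error.

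The 3 genes of the 5S particle were also among the lower ones, all within 2-fold. RPL5 (YPL131W, chromosome XVI, 303121 to 304014), which binds 5S rRNA directly, had 294.5 CPM at 30 °C against 158.8 CPM at 39 °C (log2 ratio -0.89, interval -0.99 to -0.79). Its partner RPL11 is coded by RPL11A, with 441.3 and 249.0 CPM and a log2 ratio of -0.82 (-0.90 to -0.75), and RPL11B, with 428.4 and 262.0 CPM and a log2 ratio of -0.71 (-0.79 to -0.63).

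Genes for proteins near the peptidyl transferase centre split. RPL3 (YOR063W, chromosome XV, 444686 to 445849), the longest feature of the set with 1164 bases and the one with most reads, had 1056 CPM at 30 °C against 934 CPM at 39 °C (log2 ratio -0.18, interval -0.22 to -0.13). RPL10 (YLR075W, chromosome XII, 282927 to 283592), whose protein joins the subunit late in its assembly, had 470.0 against 372.2 CPM (log2 ratio -0.34, interval -0.40 to -0.27). RPL2A with a log2 ratio of -0.78 (-0.88 to -0.68) and RPL2B with -0.89 (-0.98 to -0.81) were lower, and neither interval overlapped those of RPL3 and RPL10. None of the 4 genes was 2-fold lower.

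Along the exit tunnel and its rim, 15 of 16 genes lay below the median of all reading frames, with a median log2 ratio of -0.62 and RPL22A as the exception. RPL31A (YDL075W, chromosome IV, 322226 to 322988), of the rim, was the only 2-fold lower gene among them. Its level was 321.1 CPM at 30 °C against 143.7 CPM at 39 °C (log2 ratio -1.16, interval -1.26 to -1.06). RPL25 (YOL127W), the docking site of factors that meet the nascent chain, had 554.4 against 308.6 CPM (log2 ratio -0.84, interval -0.92 to -0.77). The RPL4 genes, whose protein reaches into the tunnel, were much closer to no difference. RPL4A had 159.5 against 127.0 CPM (log2 ratio -0.33, interval -0.45 to -0.21), and RPL4B had 137.9 against 113.4 CPM (log2 ratio -0.28, interval -0.41 to -0.16). RPL39 (YJL189W), which codes for a very small protein lining the tunnel, had only 38.3 against 23.5 CPM (log2 ratio -0.70, interval -0.97 to -0.44), against -0.43 in the authors' deposited table.

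The genes for proteins that reach toward the small subunit lay at both ends of the order. RPL24A (YGL031C, chromosome VII, 437467 to 437934) had 292.7 CPM at 30 °C against 129.5 CPM at 39 °C (log2 ratio -1.18, interval -1.28 to -1.07). RPL24B (YGR148C, chromosome VII, 787312 to 787779) had 154.0 against 71.6 CPM (log2 ratio -1.10, interval -1.25 to -0.96). Against these, RPL41A had 470.0 against 396.9 CPM (log2 ratio -0.24, interval -0.31 to -0.18), and RPL41B had 550.7 against 491.2 CPM (log2 ratio -0.17, interval -0.23 to -0.11). The ubiquitin fusion genes, which code for ubiquitin joined to a ribosomal protein, had log2 ratios of -0.69 (-0.78 to -0.61) for RPL40A and -0.50 (-0.60 to -0.41) for RPL40B.

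**Figure D3:**
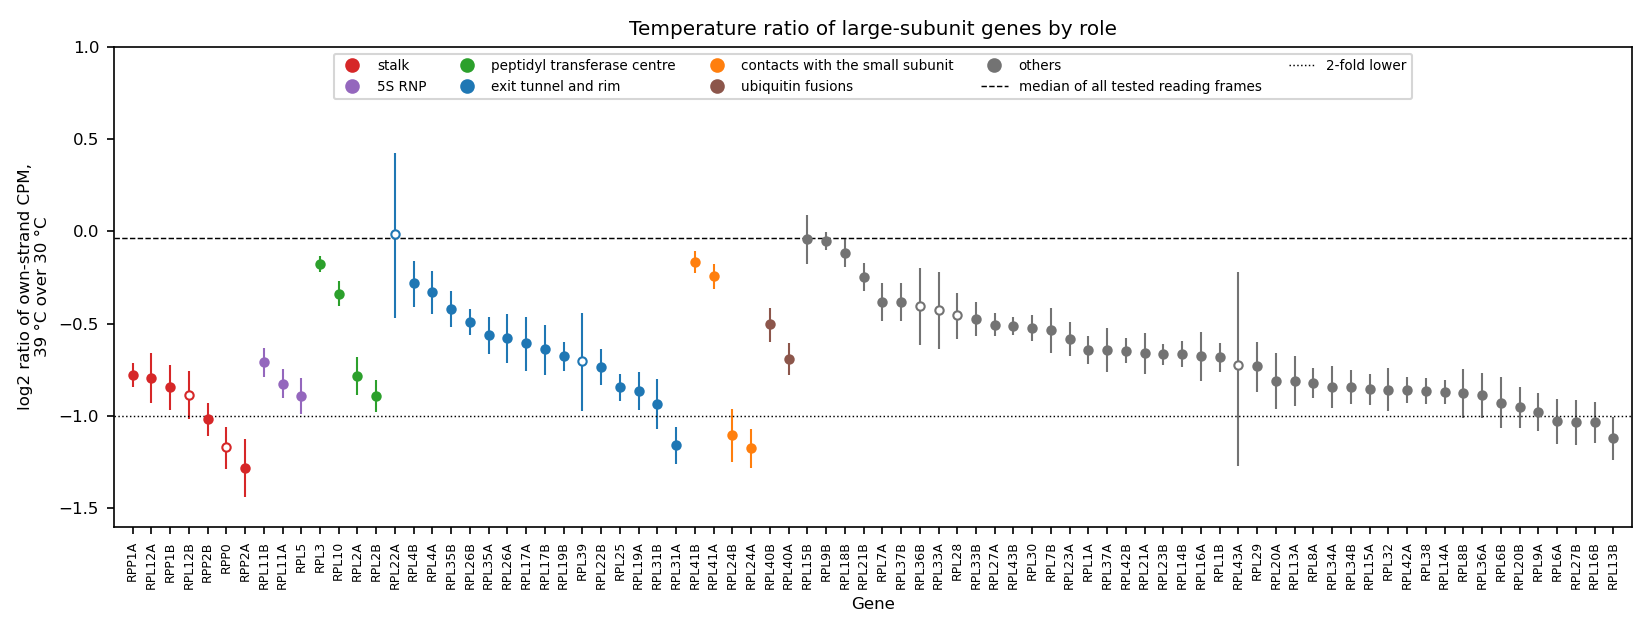
Log2 ratio of own-strand CPM, 39 °C over 30 °C (y axis), for 80 of the 81 large-subunit genes (x axis), grouped by role and ordered from high to low within a role. Bars are 95% counting intervals, and open points are the 8 genes whose ratio departs from the authors' deposited ratio. Stalk genes lie between -1.28 and -0.78, while RPL3, the RPL41 pair, RPL15B, RPL9B and RPL18B lie close to the median of all reading frames.

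The remaining 45 genes had a median log2 ratio of -0.68, with 4 at least 2-fold lower. RPL13B had 247.3 CPM at 30 °C against 113.7 CPM at 39 °C (log2 ratio -1.12, interval -1.24 to -1.01). RPL16B had a log2 ratio of -1.03 (-1.15 to -0.92) and RPL27B of -1.03 (-1.16 to -0.91). The fourth, RPL6A with -1.03 (-1.15 to -0.91), is named after its value was seen. Only the interval of RPL13B among these lay wholly below -1, as did those of RPP2A, RPP0, RPL24A and RPL31A elsewhere in the set. For RPL13B the upper bound was close to that threshold, at -1.008. Its log2 ratio was -1.09 with TMM factors or DESeq2 size factors.

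Single-copy genes leave no paralog to share reads with. The 11 such genes had a median log2 ratio of -0.73 and a range from -1.17 to -0.18, beside -0.69 for the 70 genes in pairs. RPL38 (YLR325C) had 575.6 CPM at 30 °C against 315.8 CPM at 39 °C (log2 ratio -0.87, interval -0.94 to -0.80). RPL32 had 208.9 against 115.2 CPM (log2 ratio -0.86, interval -0.98 to -0.74). RPL29, which is not essential for growth, had 146.0 against 87.9 CPM (log2 ratio -0.73, interval -0.87 to -0.60). RPL30, whose protein represses splicing of its own transcript, had 480.3 against 334.5 CPM (log2 ratio -0.52, interval -0.59 to -0.45). RPL28, known for its cycloheximide resistance mutations, had 149.9 against 109.3 CPM (log2 ratio -0.46, interval -0.58 to -0.33), against -0.18 in the authors' deposited table.

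The paralogs were compared next, by own-strand reads at each temperature. Of 35 pairs, the A copy had the higher level per length at 30 °C in 17 and the B copy in 18. The median difference between copies was 0.75 on the log2 scale at 30 °C and 0.58 at 39 °C. The copies lay at least 2-fold apart in 12 pairs at 30 °C, and in 8 of the 30 pairs that held no gene with a departing ratio. Those 8 were RPL15, RPP1, RPL26, RPL27, RPL9, RPP2, RPL8 and RPL23, of which RPL26, RPL8 and RPL23 are named after their values were seen. RPL15A held 77.6% of the pair's reads at 30 °C, RPP1A 77.0%, RPL26A 23.9%, RPL27A 74.3%, RPL9A 26.8% and RPP2A 26.6%. RPL8A held 71.3% and RPL23A 28.7%. The labels do not say how reads that match both copies were placed, and the files count no read as aligned more than once, so a share between copies of near-identical sequence is uncertain.

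The copy with the higher level was the same at both temperatures in 31 of 35 pairs. The 4 that crossed included RPL11, RPL35 and RPL42, named after their values were seen, each with copies within 1.03-fold of each other at 30 °C. Across the 35 pairs the log2 ratio of A over B at 30 °C and at 39 °C had a Spearman correlation of 0.972. The median absolute difference in temperature ratio (log2) was 0.15 within pairs and 0.27 over the 3205 couples of genes from different families, all of which share both libraries. The unknown placement of reads that match both copies limits the value within pairs too, and its part was not tested. Both copies were at least 2-fold lower in 2 pairs, RPL24 and RPP2, and 1 copy alone in 5.

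The counting interval of the change in log2 A over B excluded 0 in 18 of the 35 pairs. Among the 30 pairs without a departing gene it did so in 16. In 5 pairs the log2 ratio of A over B changed by at least 0.5 between temperatures, and 4 of these held no gene with a departing ratio. The largest change was in RPL9, whose protein lies near the base of the stalk. RPL9A (YGL147C, chromosome VII, 227754 to 228329) had 284.0 CPM at 30 °C against 144.3 CPM at 39 °C (log2 ratio -0.98, interval -1.08 to -0.87). RPL9B (YNL067W, chromosome XIV, 499681 to 500256) had 775.0 against 746.8 CPM (log2 ratio -0.05, interval -0.10 to -0.00). The A copy's share of the pair's reads was 26.8% (26.0 to 27.6) at 30 °C but 16.2% (15.3 to 17.1) at 39 °C, a change of -0.92 in log2 A over B (-1.04 to -0.81).

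RPL15 showed a change of similar size, in a pair where A was the higher copy. RPL15A (YLR029C, chromosome XII, 201976 to 202590) had 388.8 CPM at 30 °C against 214.9 CPM at 39 °C (log2 ratio -0.85, interval -0.94 to -0.77). RPL15B (YMR121C, chromosome XIII, 509734 to 510348) had 111.9 against 108.6 CPM (log2 ratio -0.04, interval -0.17 to 0.09). The share of RPL15A was 77.6% (76.6 to 78.7) at 30 °C but 66.4% (64.4 to 68.4) at 39 °C, a change of -0.81 (-0.97 to -0.65). Other-strand reads made up 7.18% of RPL15B reads at 30 °C and 13.6% at 39 °C. They do not enter these values.

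In RPL27 the change ran the other way. RPL27A had 608.5 against 428.7 CPM (log2 ratio -0.51, interval -0.57 to -0.44), and RPL27B had 210.6 against 102.9 CPM (log2 ratio -1.03, interval -1.16 to -0.91). The share of the A copy went from 74.3% to 80.6%, a change of 0.53 in log2 A over B (0.39 to 0.67). In the authors' deposited table the changes of these 3 pairs, taken as the difference of the copies' ratios, were -0.92 for RPL9, -0.79 for RPL15 and 0.54 for RPL27. Among the other genes close to no difference, RPL18B had 341.1 against 314.7 CPM (log2 ratio -0.12, interval -0.19 to -0.04). RPL21B had 348.5 against 293.6 CPM (log2 ratio -0.25, interval -0.32 to -0.17).

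**Figure D4:**
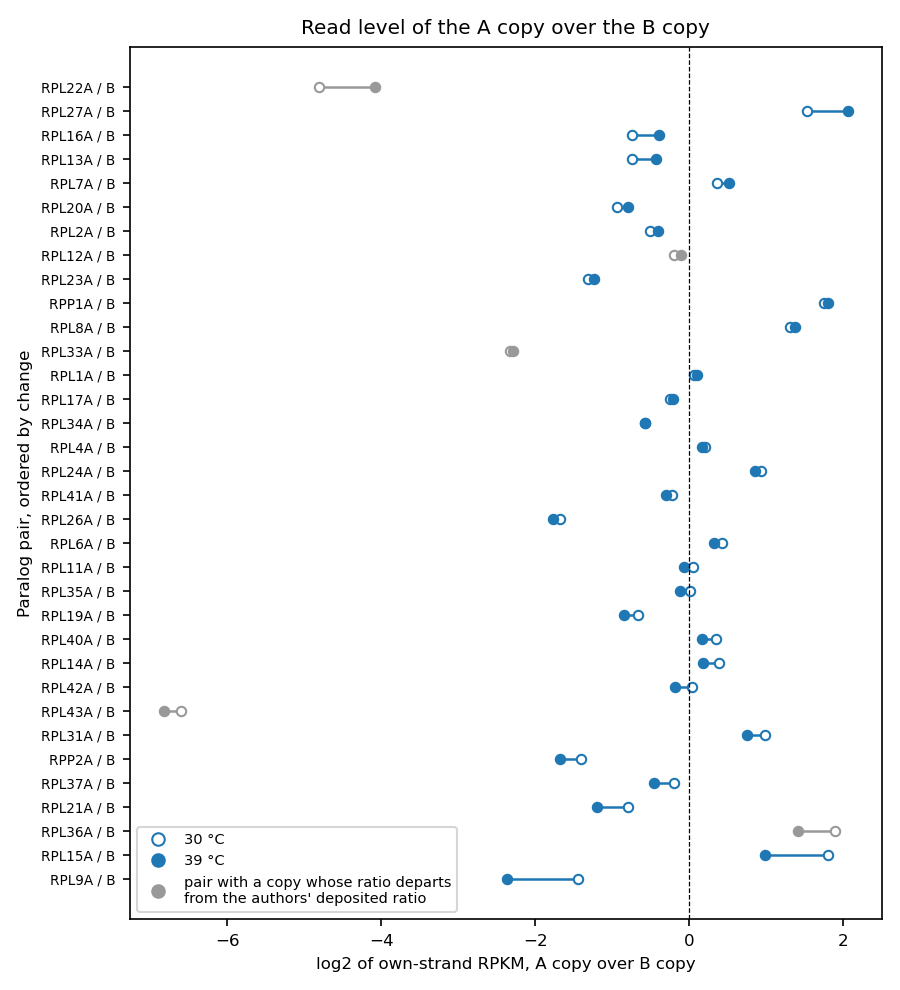
Log2 of own-strand RPKM of the A copy over the B copy (x axis) for 34 of the 35 paralog pairs (y axis, ordered by change), at 30 °C (open points) and 39 °C (filled points). Blue pairs without a departing gene mostly keep their place, while RPL9 and RPL15 move toward the B copy and RPL27 toward the A copy. Grey pairs hold a gene whose ratio departs from the authors' deposited ratio, and these include the far-left pairs RPL22 and RPL43.

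The pairs with the most unequal copies were those whose counts are least certain. RPL43A had 120 own-strand reads at 30 °C and 43 at 39 °C, beside 11640 and 4860 for RPL43B, a 97.0-fold difference per length at 30 °C. RPL22A had 117 and 69 reads beside 3289 and 1180 for RPL22B, a 27.9-fold difference. RPL33A had 616 and 273 reads beside 3096 and 1329 for RPL33B, and RPL36B had 616 and 277 reads beside 2294 and 739 for RPL36A. In each of these 4 pairs the copy with few reads is one of the 8 genes with a departing ratio.

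RPL22 was also the fifth pair with a change of at least 0.5, and there the sources disagreed. From the count files RPL22A had a log2 ratio of -0.01 (-0.47 to 0.43) and RPL22B of -0.73 (-0.83 to -0.64), a change of 0.72 in log2 A over B (0.26 to 1.17). In the authors' deposited table the ratios were -0.63 for RPL22A and -0.68 for RPL22B, and the change was 0.06. RPL36 also differed between the sources, with a change of -0.48 (-0.72 to -0.24) from the count files and 0.13 in the authors' deposited table. RPL36B had a log2 ratio of -0.41 (-0.62 to -0.20), against -0.88 in the authors' deposited table. RPL36A had -0.89 (-1.01 to -0.77), against -0.76 there, a centred departure of -0.092 that lay just under the threshold of 0.1.

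Several of these genes stand beside a feature that is numbered next to them, is named for the opposite strand and has no entry in the RefSeq annotation used here. At 30 °C the reads counted for the features named here lay mostly on the strand of the ribosomal protein gene. Feature YLR062C, next to RPL22A, had 1000 reads on that strand at 30 °C, or 96.7% of its reads, where RPL22A itself had 117. Feature YPR044C, next to RPL43A, had 1037 such reads, or 96.5%, where RPL43A had 120. Feature YJL188C, next to RPL39, had 1768, or 97.4%, where RPL39 had 446. Feature YGL102C, next to RPL28, had 1779, or 97.1%, where RPL28 had 1748. Feature YPL142C, next to RPL33A, had 714, and YLR339C, next to RPP0, had 465. Reads set aside as ambiguous between features made up 3.92% to 13.3% of counted reads per sample. The part of the neighbours and of the ambiguous reads in the 8 departures was not tested. Feature YDR417C, next to RPL12B, had 74 reads on its strand, and YPL250W-A, next to RPL36B, had 41. A neighbour of this kind also stood beside genes whose ratio did not depart, such as YPL197C with 1795 reads beside RPL7B. Others were YMR141W-A with 1698 reads beside RPL13B and YMR193C-A with 1280 beside RPL36A.

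**Figure D5:**
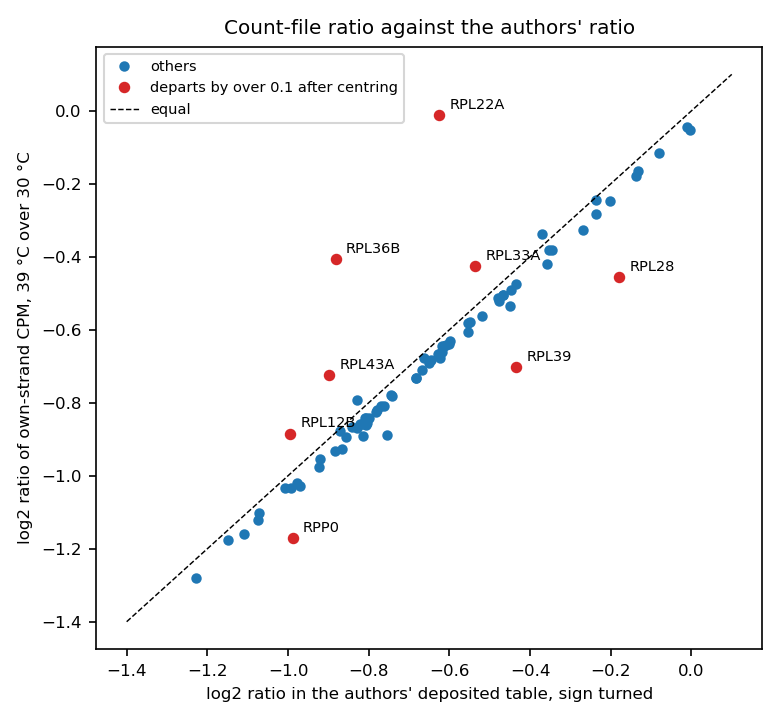
Log2 ratio from the count files (y axis) against that of the authors' deposited table with its sign turned (x axis), 1 point for each of the 81 large-subunit genes. Most points run parallel to the line of equal values, slightly below it, while the 8 red points depart by more than 0.1 after centring, RPL22A and RPL36B the farthest.

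Summing the A and B genes of each pair gave 46 families, single-copy genes included. Their median log2 ratio was -0.72, with a range from -1.17 to -0.18. At least 2-fold lower were 4, namely RPP0, RPL24 with -1.15 (-1.24 to -1.07), RPP2 with -1.08 (-1.16 to -1.01) and RPL31 with -1.08 (-1.16 to -0.999). The families closest to no difference were RPL3, RPL41 with -0.20 (-0.25 to -0.16), RPL9 with -0.25 (-0.29 to -0.20) and RPL4 with -0.31 (-0.39 to -0.22). For RPL9 this was the sum of a lower A copy and a nearly level B copy, whereas both copies of RPL41 and of RPL4 lay near the family value. The families had a median of 1061 RPKM at 30 °C, summed over copies, and 713 RPKM at 39 °C. At 30 °C, 32 of 46 families lay within 2-fold of that median, and 48 of 81 single genes lay within 2-fold of the genes' median.

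Introns, which are common among ribosomal protein genes and rare in other yeast genes, were present in 53 of the 81 genes by the difference between the span of the gene in the annotation and the feature length. Their median log2 ratio was -0.67, with 5 genes at least 2-fold lower, beside -0.81 and 5 genes for the 28 without an intron. Plus-strand genes had a median of -0.67 over 45 and minus-strand genes -0.79 over 36. In the minus-strand samples ambiguous reads made up 9.94% at 30 °C and 13.3% at 39 °C. In the plus-strand samples they made up 3.92% and 4.51%. Their part in the difference between strands was not tested. Across the 81 genes the temperature ratio had a Spearman correlation of 0.07 with RPKM at 30 °C and of -0.06 with feature length.

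In the authors' deposited table, 48 of the 81 genes were called down, 33 flat and none up, where 5.12% of all features with a value were called down and 3.05% up. Their median log2 ratio there was -0.67, and 6 were at least 2-fold lower, namely RPP2A, RPL24A, RPL24B, RPL31A, RPL13B and RPL27B. All 6 were also among the 10 from the count files. Of the remaining 4, RPP2B, RPL16B and RPL6A lay close to the threshold in both sources, while RPP0 lay close to it only in the authors' deposited table.

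The 57 small-subunit genes had ratios of similar size. They had a median log2 ratio of -0.70, 5 were at least 2-fold lower and none was 2-fold higher. They held 2.47% of reads at 30 °C and 1.49% at 39 °C, and 36 of the 57 were called down in the authors' deposited table. Their 2-fold lower genes were RPS0A with -1.47, RPS15 with -1.35, RPS22A with -1.14, RPS24A with -1.08 and RPS3 with -1.03.

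Regulators of ribosomal protein gene transcription, and chaperones and importers of large-subunit proteins, had higher median ratios than the large-subunit genes. Among 11 regulators of ribosomal protein gene transcription the median log2 ratio was 0.11, 1 gene was at least 2-fold lower and none higher. That gene was HMO1, which codes for a high-mobility-group protein at ribosomal protein promoters, with 233.8 CPM at 30 °C against 114.8 CPM at 39 °C (log2 ratio -1.03, interval -1.14 to -0.91). Of the 11 regulators, 3 lay below the median of all reading frames, namely HMO1, RAP1 and FHL1. RAP1 had a log2 ratio of -0.57 (-0.71 to -0.44), FHL1 of -0.32 (-0.48 to -0.16) and IFH1 of 0.17 (0.09 to 0.25). RAP1, FHL1 and IFH1 are named after their values were seen. Among 7 dedicated chaperones and importers the median was -0.41, between -0.70 for the large-subunit genes and -0.03 for all tested reading frames. Of these 7, 6 lay below the median of all, and none passed 2-fold in either direction.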

How the data were processed

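PAR-CLIP was available as 4 samples, 1 per strand and temperature. For each, the authors deposited raw read counts by feature, which end in 5 HTSeq summary rows left out of totals here. Reads in no feature, which those rows list, made up 22.3% to 24.7% of counted reads per sample. The submitters' processing notes name Bowtie 1.1.1, HTSeq and the builds sacCer3 and R64. Filters on mismatches and duplicates, the treatment of repeated matches, the strand setting and the annotation were not given in the sources used here. Names, feature lengths, a call, a log2 ratio and scores (a probability and rankings that are not p-values) came from the authors' deposited table. Its log2 ratio was turned in sign, because as deposited it ran opposite to the ratio of the count files (Pearson -0.95 over 6162 reading frames). Another 2 columns of per-library values match no label and were not used.

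Strand was read from the systematic name. Own-strand reads are those of the minus-strand file for a C feature and of the plus-strand file for a W feature. CPM used the reads in features of both strand files of a temperature. Reading frames with at least 20 own-strand reads were tested for 2-fold. Intervals are exact conditional binomial (ratios), Clopper-Pearson (shares) or exact conditional for the odds ratio (change between copies). TMM factors of edgeR 4.0.16 and size factors of DESeq2 1.42.0 served as alternatives in R 4.3.3. All else ran in Python 3.11.15 with scipy 1.17.1. The calculation was tested on simulated counts. The members, roles and lists were chosen with earlier results of these data known. Described with values are the stalk and single-copy genes, the 8 highest and 4 lowest levels, the 8 highest and 8 lowest ratios, the 6 pairs with the largest change and the 6 with the largest difference between copies at 30 °C, and list members past 2-fold. RefSeq (R64) gave coordinates. Values of 1 gene and its pair are not reported here. Sequences and promoter motifs are not analysed here.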

Additional observations from a re-analysis of the deposited data

How the results depend on the processing

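The median log2 ratio of the 81 genes stayed between -0.79 (minus-strand genes alone) and -0.67 under all alternatives run. These included both strands summed, totals per strand file, TMM factors, DESeq2 size factors and centring on the median of all tested reading frames. The others were 5 added to each count, no read minimum, a minimum of 1000 reads, and subsets of the genes. Leaving out the minimum could not change the values, since each gene had at least 163 own-strand reads over both libraries. The number at least 2-fold lower, 10 as reported, was 8 with TMM factors or both strands summed, 7 after centring, 6 with DESeq2 size factors and 6 with the authors' deposited log2 ratio. Fewer genes enter with single-copy genes alone (1), plus-strand genes alone (5) and minus-strand genes alone (5). With both strands summed the share of reads was 2.65% at 30 °C and 1.74% at 39 °C. Without the 2 genes that overlap another annotated feature it was 2.51% and 1.62%. Of 322 values of the 46 named genes under these alternatives, 8 moved by more than their counting interval. RPL22A and RPL15B, whose intervals span 0, changed sign. RPL22A lay between 0.01 and 0.03 with both strands summed, totals per strand file, TMM factors, DESeq2 size factors, centring and 5 added, and RPL15B at 0.06 with both strands summed. Of these 8, 6 were with the authors' deposited ratio, for RPL22A, RPL28, RPL36A, RPL36B, RPL39 and RPP0, and 2 with both strands summed, for RPL22B and RPL24A. The use of the authors' ratio, and the omission of genes departing from it, were chosen after seeing the data. Pairs split by protein identity were not run, since no protein sequences were used here.

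No paired analysis was possible because each temperature has 1 library and the labels number no replicates. Depth limits RPL43A, RPL22A and RPL39 most, with 163 to 609 own-strand reads over both libraries.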

Other observations

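Some large-subunit genes lie within 3000 bases of each other, and such genes did not always share a ratio. RPL13A and RPP1A, separated by 413 bases on chromosome IV in convergent orientation, had log2 ratios of -0.81 and -0.78. RPL2A and RPL29 on chromosome VI had -0.78 and -0.73. RPL24A and RPL30 on chromosome VII, divergent with 1156 bases between them, had -1.18 and -0.52, and RPKM of 625.4 and 1510.4 at 30 °C. These genes were paired here after their values were seen. The 81 genes are spread over 14 chromosomes, with 13 on chromosome IV. The 10 genes with most reads at 30 °C held 28.2% of the set's reads there and 30.0% at 39 °C.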
